A study of Mus musculus with 6 samples.

Results

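The genes of the major histocompatibility complex (MHC) were followed in RNA sequencing data of the mouse lens. They were taken by name: every row whose symbol starts with H2-, and B2m, Tap1, Tap2, Tapbp, Psmb8 and Psmb9, which gave 47 of the 41449 rows of the table (41 H2- rows and 6 others). The H2- rows comprised 2 classical class I genes, H2-K1 and H2-D1, with H2-K2, a transcribed pseudogene beside H2-K1. They also comprised 7 non-classical class I rows of the Q region, 7 of the T region and 13 of the M region, 10 class II rows, and H2-Ke6. H2-Ke6 carries the prefix because of its place in the complex and encodes a steroid and fatty-acid dehydrogenase, also called Hsd17b8, not an MHC molecule.

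Class I molecules pair a heavy chain with β2-microglobulin, the product of B2m, and show peptides from inside the cell to T cells and natural killer cells. Proteasomes, in stressed or infected tissue the immunoproteasome with Psmb8 and Psmb9, cut those peptides, the transporter of Tap1 and Tap2 moves them into the endoplasmic reticulum, and tapasin (Tapbp) helps load them. Class II molecules show peptides taken up from outside and are made mainly by professional antigen-presenting cells. The lens has no blood vessels and lies within an immune-privileged eye.

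Each of the 6 libraries held total RNA of 2 microdissected lenses from mice 2 months old. The 3 wild-type libraries (WT) came from C57BL/6 mice, and the 3 libraries of the fibronectin conditional knockout (FNcKO) from mice of mixed C57BL/6, 129 and FVB/N background; the series text calls the samples biological replicates. Neither the driver of the deletion nor the MHC haplotype of the FNcKO mice is stated there. As background, C57BL/6 and most 129 strains carry the b haplotype of the complex and FVB/N carries the q haplotype, so genotype and strain background cannot be told apart in any difference below.

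Values are FPKM as deposited, that is, fragments scaled to transcript length and library depth. Many low values stepped by what 1 fragment was taken to be worth, which gave an estimated depth of 13500000 to 16200000 fragments for WT and 10200000 to 10900000 for FNcKO. Fn1, the targeted gene, lay at 0.135 to 0.253 FPKM in WT and 0.0482 to 0.128 FPKM in FNcKO, and the groups did not overlap. The 9 defining lens markers were present in every library that had a value for them. Genotypes were compared with limma on log2(FPKM + 1) over the 10149 rows with a mean of at least 1 FPKM, and a row was called where its Benjamini-Hochberg adjusted p was under 0.05.

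MHC transcripts were scarce in the lens. Of the 47 rows, 6 had a mean of at least 1 FPKM over the libraries, 15 lay from 0.1 to 1 FPKM, and 26 lay under 0.1 FPKM, of which 11 were listed at 0 in every library. Those 11 were 9 of the 13 M-region rows, H2-Ob and H2-Ea-ps, the pseudogene of the class II Eα chain, whose gene both the b and q haplotypes are known not to express. The 6 rows over 1 FPKM passed the filter of the test, and among them 1 was called, H2-T24, which fell in FNcKO. Over all 10149 rows, 1.89% were called, 0.857% higher and 1.03% lower. The median log2 change of the 6 rows was -0.02, beside -0.04 over all rows tested.

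**Figure D1:**
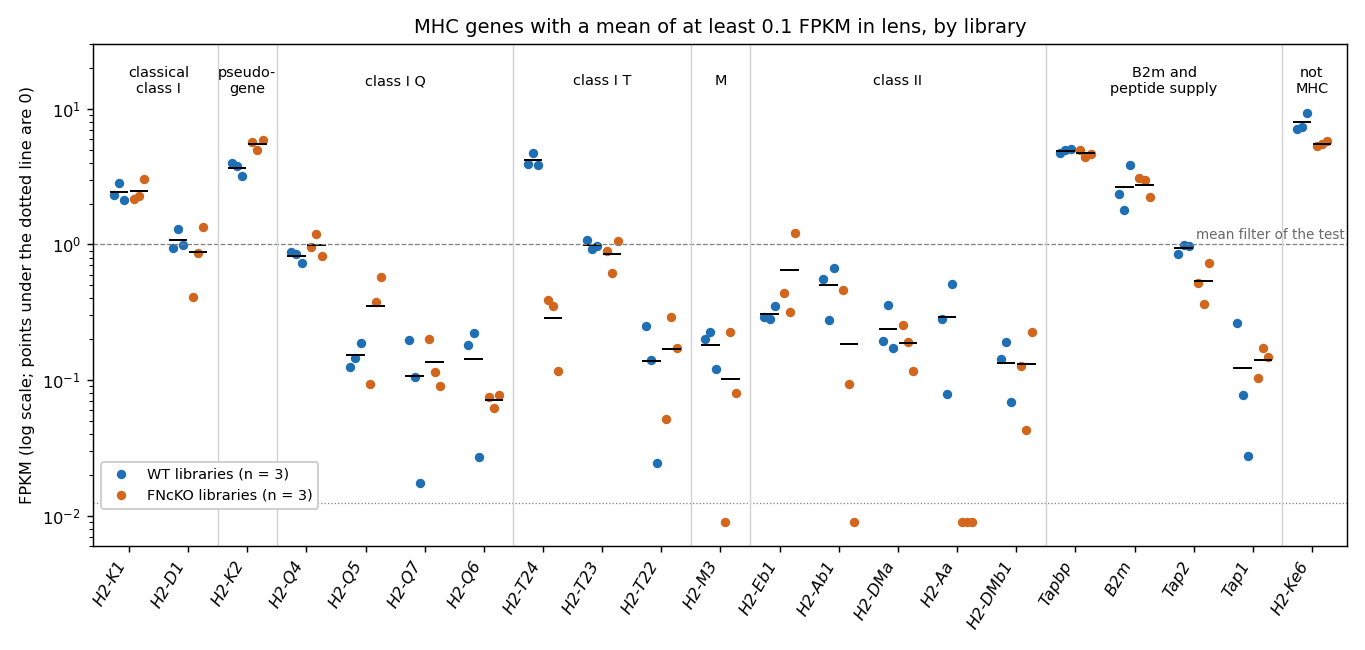
FPKM (log axis) of the 21 MHC genes averaging 0.1 FPKM or more, by class; points are libraries (blue WT, orange FNcKO, n = 3 each) and bars the group means. Among the genes above 0 in every library, H2-T24 has the widest gap between the groups. It lies at 3.83 to 4.72 FPKM in WT and 0.116 to 0.393 FPKM in FNcKO, while H2-K1, H2-D1, Tapbp and B2m overlap. Values of 0, as for H2-Aa in FNcKO, are drawn under the dotted line at an arbitrary height.

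The promoters of 4 of the class I genes are shown so that the letters around the start of the classical heavy chains, H2-T23 and the shared light chain can be read side by side. The windows are those of RefSeq on GRCm38.p6, a C57BL/6J assembly, from 250 bases before to 50 bases after the annotated start, 5′ to 3′ on the gene's strand. They lie at chr17:34000298-34000597 (minus strand), chr17:35262844-35263143 (plus), chr17:36032652-36032951 (minus) and chr2:122147437-122147736 (plus). Capitals mark matches, on either strand, to the core of a κB site (GGATTCC), an interferon response element (GAAANNGAAA), an X2 box (TGACGC) and a CCAAT box (CCAAT), and no matches overlap each other.
H2-K1: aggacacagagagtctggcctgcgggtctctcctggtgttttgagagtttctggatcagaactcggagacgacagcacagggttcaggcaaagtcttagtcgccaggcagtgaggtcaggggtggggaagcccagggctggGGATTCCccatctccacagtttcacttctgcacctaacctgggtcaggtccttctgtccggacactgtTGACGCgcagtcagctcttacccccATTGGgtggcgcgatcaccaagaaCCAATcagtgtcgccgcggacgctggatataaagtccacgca
H2-D1: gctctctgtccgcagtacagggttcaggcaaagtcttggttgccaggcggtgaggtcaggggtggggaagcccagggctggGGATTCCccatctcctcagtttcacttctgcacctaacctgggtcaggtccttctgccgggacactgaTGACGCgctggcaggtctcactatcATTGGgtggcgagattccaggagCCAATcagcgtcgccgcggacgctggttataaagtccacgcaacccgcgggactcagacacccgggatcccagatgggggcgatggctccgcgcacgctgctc
H2-T23: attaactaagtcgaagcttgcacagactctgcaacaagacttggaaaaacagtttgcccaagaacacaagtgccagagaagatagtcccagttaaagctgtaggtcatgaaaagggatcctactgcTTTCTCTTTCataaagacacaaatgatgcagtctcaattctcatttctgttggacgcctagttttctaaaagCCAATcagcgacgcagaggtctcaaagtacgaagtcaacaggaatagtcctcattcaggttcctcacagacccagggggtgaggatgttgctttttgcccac
B2m: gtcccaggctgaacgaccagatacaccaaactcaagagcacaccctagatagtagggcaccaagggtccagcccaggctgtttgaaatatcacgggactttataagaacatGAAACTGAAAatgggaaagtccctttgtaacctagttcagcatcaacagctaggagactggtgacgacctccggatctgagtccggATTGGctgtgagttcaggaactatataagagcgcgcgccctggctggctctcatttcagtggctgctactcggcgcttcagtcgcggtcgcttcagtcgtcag
The κB letters began 109 bases before the start of H2-K1 and 169 before that of H2-D1, and the X2 letters 41 and 101 bases before. The CCAAT letters began 16 bases before and 8 after the start of H2-K1, and 76 and 53 before that of H2-D1. All these distances depend on where each start is annotated. The interferon response letters began 124 bases before the start of H2-T23 and 139 before that of B2m. Windows were given for 37 of the 47 rows. Over all 32851 windows, 3.79% held the κB letters, and so did those of 5 MHC genes, H2-K1, H2-D1, H2-Q6, H2-Q7 and H2-M5. The interferon response letters stood in 3.44% of all windows and in those of H2-T23, H2-T22 and B2m. The X2 letters stood in 7.4% of all windows and in those of 4 MHC genes, H2-K1, H2-D1, H2-M3 and H2-Q4. The CCAAT letters stood in 37.4% of all windows and in those of 33 MHC genes. A match describes letters, not bound factors, and looser spellings of the same elements, unmarked here, were not searched. Windows of H2-T24 and H2-K2 were not used here.

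The classical class I heavy chains, which present most cellular peptides to cytotoxic T cells, had overlapping levels in the groups. H2-K1 (GRCm38 chr17:33996012-34000341) had 2.31, 2.84 and 2.12 FPKM in WT libraries 1 to 3 and 2.15, 2.29 and 3.01 FPKM in FNcKO libraries 1 to 3. The ranges overlapped, with means of 2.42 ± 0.374 and 2.48 ± 0.461 FPKM (SD, n = 3 each). The log2 change of H2-K1 was 0.02 (SE 0.13, limma adjusted p = 0.947).

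H2-D1 (chr17:35263094-35267497) averaged just under the filter. It had 0.944, 1.31 and 0.988 FPKM in WT and 0.413, 0.861 and 1.35 FPKM in FNcKO. FNcKO library 1 was the lowest of the 6 and FNcKO library 3 the highest, so the groups overlapped (exact two-sided permutation test, p = 0.5; the smallest p that 3 against 3 allows is 0.1). The summed FPKM of H2-K1 and H2-D1 was 3.50 ± 0.563 in WT and 3.36 ± 0.915 in FNcKO. Class I sequences resemble each other: 9.63% of the 50-base words of H2-K1 transcripts and 12.8% of those of H2-D1 also occurred in transcripts of other genes, so their values are uncertain where the counting could split such fragments.

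H2-K2 (chr17:33974659-33978791), the pseudogene beside H2-K1, had 4.0, 3.76 and 3.20 FPKM in WT and 5.69, 4.96 and 5.87 FPKM in FNcKO. Every FNcKO library lay above every WT library, with means of 3.65 ± 0.414 and 5.51 ± 0.479 FPKM (SD, n = 3 each), a ratio of 1.51. The log2 change was 0.48 (SE 0.09) and did not pass the test on the values as deposited (limma adjusted p = 0.0747). It passed with every library set to the same FPKM total (log2 change 0.69, adjusted p = 0.0419) and to the same total without crystallins (0.83, adjusted p = 0.044), which moved the median of all rows from -0.04 to 0.15 and 0.29. Per length, H2-K2 was 1.73, 1.32 and 1.51 times the level of H2-K1 in WT and 2.64, 2.17 and 1.95 times in FNcKO. These ratios, which scaling leaves as they are, did not overlap between the groups (exact two-sided permutation p = 0.1, the smallest possible). Of the 50-base words of H2-K2, 9.38% occurred in transcripts of other genes, so the ratios are uncertain by an amount that was not estimated.

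Of the T-region genes, H2-T24 changed and its neighbours H2-T23 and H2-T22 had overlapping groups. H2-T24 (chr17:36003992-36020845, minus strand), a non-classical class I heavy chain, had 3.92, 4.72 and 3.83 FPKM in WT libraries 1 to 3. In FNcKO libraries 1 to 3 it had 0.393, 0.349 and 0.116 FPKM. The lowest WT library was far above the highest FNcKO library. The means were 4.16 ± 0.489 and 0.286 ± 0.149 FPKM (SD, n = 3 each), which is 14.5-fold lower in FNcKO. The log2 change was -2.01 (SE 0.12, limma adjusted p = 0.00237), on a scale that understates the change of low values, and it passed the threshold under each of the 16 other settings tried. Taken over its annotated transcript of 2182 bases, these levels rest on roughly 126.1, 135.8 and 102.4 fragments of the WT libraries, against 8.5, 7.5 and 2.3 of the FNcKO libraries. Of its 50-base words, 3.17% occurred in transcripts of other genes.

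In WT, H2-T24 supplied more FPKM than any other class I heavy chain, and 37.9% to 41.8% of the FPKM of all 29 classical, Q, T and M rows together. In FNcKO its share was 1.52% to 7.2%. These 29 rows leave out the pseudogene H2-K2, at 3.20 to 4.0 FPKM in WT, but keep pseudogene rows such as H2-Q5 and H2-T10. With H2-K2 counted, the share of H2-T24 would be smaller. The summed FPKM of the 7 T-region rows was 5.37 ± 0.526 in WT and 1.45 ± 0.0831 in FNcKO. Without H2-T24, the class I heavy chains summed to 6.28 ± 0.894 FPKM in WT and 6.26 ± 1.22 FPKM in FNcKO, so the groups differed by less than the spread between libraries. In whole lenses, fewer cells that express a gene and less of its RNA per cell cannot be told apart. Whether reads of other strain alleles aligned to the C57BL/6J assembly as well as C57BL/6 reads was not tested.

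H2-T23 (chr17:36029977-36032701), whose product Qa-1 presents leader peptides of other class I molecules to natural killer receptors, had 1.08, 0.929 and 0.969 FPKM in WT and 0.897, 0.615 and 1.06 FPKM in FNcKO. The groups overlapped (exact permutation p = 0.4). H2-T24 was 3.62, 5.08 and 3.95 times the level of H2-T23 in WT and 0.438, 0.568 and 0.11 times in FNcKO. That ratio separated the groups as the level of H2-T24 did (exact permutation p = 0.1). Of the 50-base words of H2-T23, 13.6% occurred in transcripts of other genes. H2-T22, recognised by some γδ T cells, lay at 0.0245 to 0.251 FPKM in WT and 0.0514 to 0.29 FPKM in FNcKO. H2-T10, a near copy, lay at 0.0114 to 0.0366 FPKM in WT and 0.0686 to 0.155 FPKM in FNcKO without overlap. Because 31.3% of the 50-base words of H2-T22 also occurred in H2-T10, their separate values are uncertain. H2-Bl, H2-T-ps and H2-T3 stayed under 0.1 FPKM in every library.

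The summed levels of 2 marker lists did not overlap between the groups, 1 lower and 1 higher in FNcKO. Those of the leukocyte, endothelium, photoreceptor, cornea and lens lists overlapped. Of all single rows tested, 25.6% did not overlap. The 8 pigment-cell markers summed to 11.6 to 18.95 FPKM in WT and 6.67 to 8.46 FPKM in FNcKO, and none of them was at 0 in every library. Ttr held much of that sum, at 8.85 ± 2.87 FPKM in WT and 3.68 ± 0.756 FPKM in FNcKO. Ttr, Oca2 and Mlana were lower without overlap, and Tyr, Tyrp1, Dct, Pmel and Rpe65 overlapped. The means of Tyr (0.21 FPKM in WT, 0.226 in FNcKO) and Tyrp1 (0.533 and 0.712 FPKM) were higher in FNcKO. The 6 markers of ciliary body and iris summed to 70.1 to 82.95 FPKM in WT and 107.6 to 128.8 FPKM in FNcKO, again with none at 0 throughout. Within that list Aqp1 was called (log2 change 1.39, SE 0.215, limma adjusted p = 0.0432). It had 5.27 ± 0.991 FPKM in WT and 15.6 ± 3.96 FPKM in FNcKO. Optc (18.25 ± 3.58 and 42.9 ± 9.93 FPKM) and Col9a1 were also higher without overlap but not called, and Cp and Wfdc1 overlapped. Wls lay the other way without overlap, at 18.7 ± 0.697 FPKM in WT and 16.6 ± 1.118 FPKM in FNcKO. The 9 photoreceptor markers with a value in every library summed to 22.65 to 64.3 FPKM in WT and 34.9 to 35.95 FPKM in FNcKO, with WT library 2 the lowest WT library for each of the 9. Of 9 photoreceptor markers tested, 8 had a log2 change below 0, and Gnat1, a rod transducin gene with no value in WT library 2, fell (log2 change -1.05, limma adjusted p = 0.0215). The single markers given by value here were chosen after their values were seen, and the part of all these lists in the result was not tested.

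On the other strand of this region lies A930015D03Rik, a long non-coding RNA whose row (chr17:35994504-36038174) spans H2-T24 and H2-T23. Its mean was just under 1 FPKM, and it was chosen after its values were seen. It had 0.206, 0.461 and 0 FPKM in WT and 1.61, 1.39 and 2.15 FPKM in FNcKO. Every FNcKO library lay above every WT library, with means of 0.222 ± 0.231 and 1.72 ± 0.387 FPKM (SD, n = 3 each), a ratio of 7.72. With the filter lowered to 0.1 FPKM, the log2 change was 1.16 (SE 0.17, limma adjusted p = 0.0448). The call was lost with no filter (adjusted p = 0.0888) and with that filter and a pseudocount of 0.1 (adjusted p = 0.111). In the GENCODE annotation its exons share 0 bases with exons of H2-T24 or H2-T23 and 1003 with exons of H2-T22. The deposited row, however, ends before that of H2-T22 starts (chr17:36038407). Its steps would imply 1395.7 bases, not a whole number and above the 1111 of its longest GENCODE transcript, so they fix no length. The annotation used for counting is not stated, so the exons counted may differ from those of GENCODE. The library kit keeps strand, but whether the counting used it is not given, and without strand, reads of overlapping genes cannot be told apart.

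On the centromeric side, Gm32655, a long non-coding RNA (chr17:35969809-35972538), had 3.36, 2.42 and 3.74 FPKM in WT and 1.25, 0.421 and 0 FPKM in FNcKO. The groups did not overlap, and its mean was 5.71-fold lower in FNcKO, but it missed the threshold (log2 change -1.49, SE 0.31, limma adjusted p = 0.0805). The protein-coding genes between it and H2-T24 showed smaller differences. Prr3 had a log2 change of 0.12 (adjusted p = 0.664). Gnl1, a GTP-binding protein gene, lay at 5.16, 5.2 and 5.24 FPKM in WT and 4.14, 4.51 and 3.91 FPKM in FNcKO. Every FNcKO library lay below every WT library, but Gnl1 missed the threshold (log2 change -0.26, adjusted p = 0.123).

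**Figure D2:**
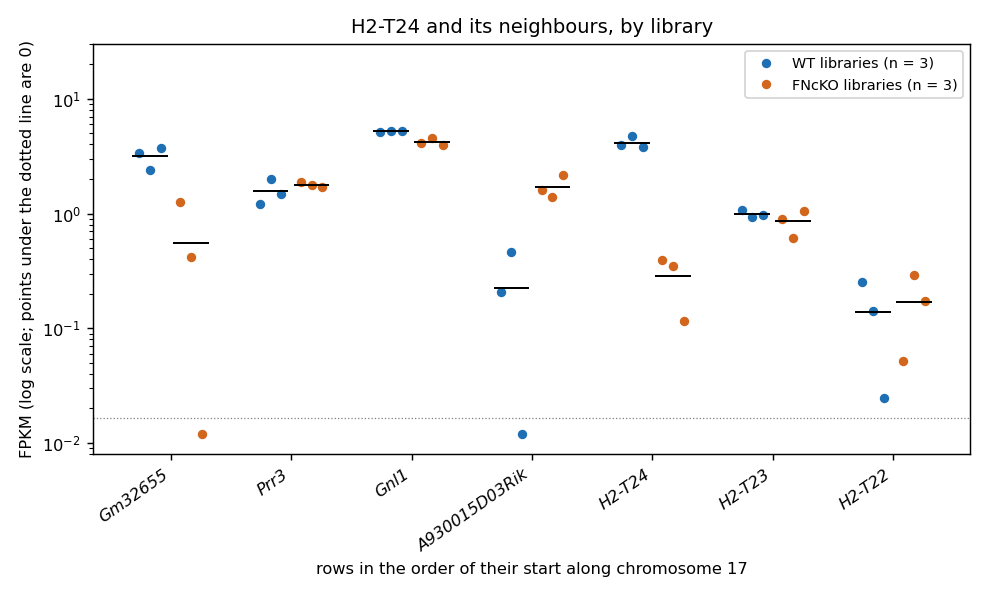
FPKM (log axis) of H2-T24 and the rows around it, in the order of their start on chromosome 17; points are libraries (blue WT, orange FNcKO, n = 3 each) and bars the group means. H2-T24, Gm32655 and, by less, Gnl1 are lower and A930015D03Rik is higher in every FNcKO library, while Prr3, H2-T23 and H2-T22 overlap.

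Across the whole complex, from the lowest start to the highest end of the H2- rows (chr17:33974659-37483624, 3.51 Mb), 196 rows were not MHC genes by the rule and 50 of them were tested. None was called by limma (0 of 50), 13 had an unadjusted p under 0.05, and 14 did not overlap between the groups, 2 higher and 12 lower. Over all rows tested, 1.89% were called, 18.1% had an unadjusted p under 0.05, and 25.6% did not overlap, 9.31% higher and 16.3% lower. The median log2 change of the 50 was -0.08. The 4 with the smallest p were Ddr1, LOC105243785, Gm32655 and Brd2. Ddr1, a collagen receptor gene, had 6.80, 7.86 and 7.86 FPKM in WT and 5.43, 5.09 and 5.23 FPKM in FNcKO. Its log2 change of -0.44 (SE 0.07) just missed the threshold (limma adjusted p = 0.0501) but passed with a pseudocount of 0.1 (adjusted p = 0.0462). LOC105243785, which lies next to H2-K2 (chr17:33979492-33981298), had 4.30, 5.92 and 3.30 FPKM in WT and 9.46, 9.13 and 10.3 FPKM in FNcKO. The log2 change of 0.98 (SE 0.17) missed the threshold (adjusted p = 0.0617) and passed with libraries at the same FPKM total (adjusted p = 0.042) or at that total without crystallins (adjusted p = 0.0321). Brd2, a chromatin reader gene, had a log2 change of -0.30 (adjusted p = 0.0965).

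**Figure D3:**
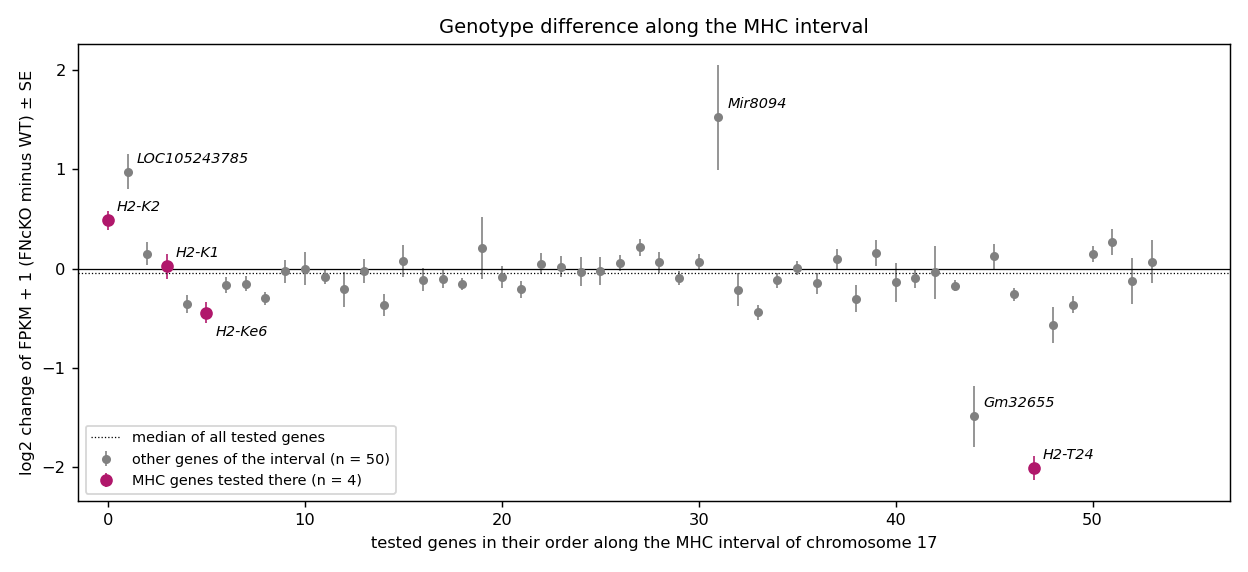
Log2 change of FPKM + 1 (FNcKO minus WT) with its SE for the 54 tested genes of the complex, in their order along chromosome 17; MHC genes are magenta, the other 50 grey, and the dotted line is the median of all tested genes. H2-T24 at -2.01 lies lowest; Mir8094 at 1.52, named because it stands out here, has a wide SE of 0.53, overlapping groups and an adjusted p of 0.22 in limma.

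The Q-region heavy chains were low in both groups. H2-Q4 led them with 0.884, 0.849 and 0.733 FPKM in WT and 0.956, 1.19 and 0.823 FPKM in FNcKO, which overlapped (exact permutation p = 0.3). H2-Q7, a Qa-2 gene, lay at 0.0174 to 0.198 FPKM in WT and 0.0903 to 0.199 FPKM in FNcKO. H2-Q10, known as a class I protein secreted by the liver, did not exceed 0.0646 FPKM. The 7 Q rows summed to 1.32 ± 0.246 FPKM in WT and 1.63 ± 0.208 FPKM in FNcKO, and none separated the groups. Between 15.0% (H2-Q1) and 36.5% (H2-Q5) of their 50-base words were shared with other transcripts.

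Of the M region, 4 of the 13 rows had a value above 0. H2-M3, which presents peptides that begin with formyl-methionine, had 4, 4 and 2 fragments in WT against 0, 3 and 1 in FNcKO. The groups overlapped, and the other 3 rows above 0 (H2-M2, H2-M10.1 and H2-M10.2) did not exceed 0.0873 FPKM.

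Of the light chain and the peptide-supply genes, Tap2 alone separated the groups. B2m (chr2:122147687-122153082) had 2.35, 1.78 and 3.84 FPKM in WT and 3.07, 2.96 and 2.25 FPKM in FNcKO, which rested on 25, 17 and 34 fragments in WT against 22, 21 and 15 in FNcKO. WT libraries 2 and 3 were the lowest and the highest of the 6 (log2 change 0.07, SE 0.22, limma adjusted p = 0.901). Tapbp (chr17:33919478-33929290), the loading factor tapasin, had 4.71, 4.94 and 5.08 FPKM in WT and 5.0, 4.42 and 4.64 FPKM in FNcKO. These overlapped too (log2 change -0.06, SE 0.07, adjusted p = 0.703).

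Tap2 (chr17:34204479-34216321), one of the pair of peptide transporter subunits, had 0.848, 0.992 and 0.971 FPKM in WT and 0.519, 0.364 and 0.732 FPKM in FNcKO. Every FNcKO library lay below every WT library, and the means were 0.937 ± 0.0778 and 0.538 ± 0.185 FPKM (SD, n = 3 each). Tap2 lay under the filter of 1 FPKM, and with a filter of 0.1 FPKM it did not pass (log2 change -0.34, SE 0.11, limma adjusted p = 0.235). Tap1, its partner, had 0.266, 0.0774 and 0.0278 FPKM in WT and 0.103, 0.174 and 0.148 FPKM in FNcKO, which overlapped. At that filter 21 MHC genes were tested and H2-T24 was again the 1 called, beside 1.01% of all 17545 rows (0.462% higher and 0.547% lower). Of the 21, 5 did not overlap between the groups, 1 higher and 4 lower, beside 22.1% of all rows (9.07% higher and 13% lower). An unadjusted p under 0.05 was reached by 5 of the 21 and by 14.8% of all rows.

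The immunoproteasome subunits were almost absent. Psmb8 rested on 0, 1 and 3 fragments in WT against 1, 1 and 0 in FNcKO, and Psmb9 was listed at 0 in every library but FNcKO library 1, at 0.151 FPKM. Their constitutive counterparts Psmb5 and Psmb6 lay at 12.0 to 17.95 and 33.2 to 38.7 FPKM. Per length, Psmb8 made up 0 to 1.65% of the FPKM of Psmb5 and Psmb8 together. Psmb9 made up 0 to 0.424% of Psmb6 and Psmb9, and Psmb10 made up 1.45% to 3.06% of Psmb7 and Psmb10.

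Class II transcripts were rare, and their values rested on few fragments. The α chain gene H2-Aa (chr17:34282751-34287771) had 4, 1 and 6 fragments in WT (0.284, 0.0793 and 0.512 FPKM) and was listed at 0 in the 3 FNcKO libraries. Taking 3 fragments over the group as the limit that 0 allows, H2-Aa was at least 2.64-fold lower relative to depth in FNcKO, with the 11 WT fragments taken as measured. Without WT library 3, which held 6 of them, that bound was 1.73-fold. With the filter of 0.1 FPKM it did not pass (limma adjusted p = 0.267). Its partner in the I-A molecule, H2-Ab1 (chr17:34263227-34269418), had 9, 4 and 9 fragments in WT against 5, 1 and 0 in FNcKO. FNcKO library 1 had more than WT library 2, so the groups overlapped (0.503 ± 0.203 and 0.185 ± 0.244 FPKM, exact permutation p = 0.2).

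H2-Eb1 (chr17:34305867-34316674), the β chain of the I-E molecule, had 7, 6 and 7 fragments in WT against 7, 5 and 18 in FNcKO. FNcKO library 3, at 1.21 FPKM, stood above the other 5 libraries, at 0.281 to 0.436 FPKM. The peptide-exchange factor genes H2-DMa and H2-DMb1 had overlapping groups, at 0.117 to 0.355 and 0.0427 to 0.228 FPKM over all libraries. H2-DMb2 rested on values of 0 to 0.0527 FPKM in WT and 0.0783 to 0.253 FPKM in FNcKO. H2-Oa and H2-Ob, the inhibitors of that exchange, had 1 library above 0 between them. The 10 class II rows summed to 1.5 ± 0.30 FPKM in WT and 1.33 ± 0.488 FPKM in FNcKO.

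Markers of leukocytes and antigen-presenting cells were as scarce. None of the 18 listed had a mean of at least 1 FPKM, and the T-cell gene Cd3e was at 0 in every library. The 17 with a value in every library summed to 3.06 to 5.23 FPKM in WT and 1.86 to 3.62 FPKM in FNcKO. Cd74, the invariant chain that escorts class II molecules, had 1.58, 0.876 and 0.951 FPKM in WT and 0.537, 0.453 and 0.894 FPKM in FNcKO (exact permutation p = 0.2). The part of these cells in the class II values was not tested. Intervals and limits from fragment numbers cover counting error only.

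**Figure D4:**
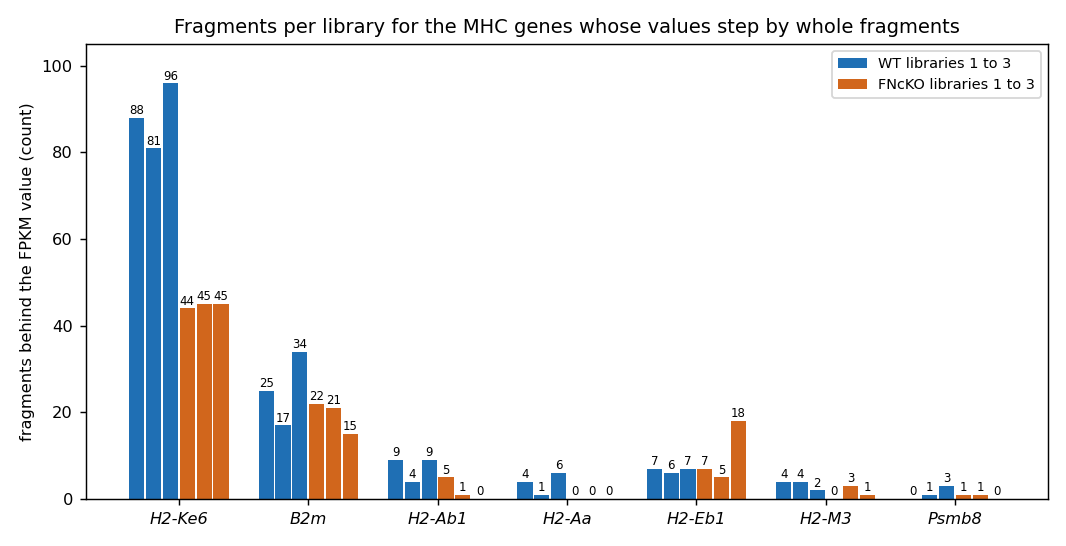
Fragments behind the FPKM values of the 7 MHC genes whose values step by whole fragments at a length near their annotated transcripts, in WT libraries 1 to 3 (blue) and FNcKO libraries 1 to 3 (orange). H2-Ke6 has 81 to 96 fragments in WT and 44 or 45 in FNcKO, B2m has 15 to 34, and the class II, H2-M3 and Psmb8 bars are at most 18.

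H2-Ke6 (chr17:34026033-34028055) was the most abundant of the 47 rows. It had 7.11, 7.31 and 9.33 FPKM in WT and 5.28, 5.46 and 5.82 FPKM in FNcKO, from 88, 81 and 96 fragments and 44, 45 and 45 fragments. The groups did not overlap, with means of 7.92 ± 1.23 and 5.52 ± 0.274 FPKM (SD, n = 3 each). The difference did not pass the test (log2 change -0.44, SE 0.11, limma adjusted p = 0.118), and 70.5% of its 50-base words are shared with the readthrough row Gm20427.

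Over all 47 rows, 3 were higher without overlap in FNcKO (H2-K2, H2-DMb2 and H2-T10) and 6 lower (H2-Ke6, Tap2, H2-Aa, H2-T24, H2-T-ps and H2-M2), beside 4.58% higher and 6.38% lower over all 41449 rows. Several of these rows rested on very few fragments, estimated over their longest annotated transcripts. H2-DMb2 had about 1.1, 0 and 0 in WT and 1.1, 1.1 and 3.3 in FNcKO, where 1 fragment is worth more FPKM. H2-T10 had 0.6, 1.2 and 1.6 in WT against 4.1, 2.4 and 5.0 in FNcKO. H2-T-ps had 0.5, 1.0 and 0.2 in WT against 0.1 in each FNcKO library. H2-M2 did not exceed 0.2 in any library. Among the 6 tested rows, 3 did not overlap, 1 higher and 2 lower, beside 9.31% higher and 16.3% lower over all 10149 rows.

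The other genes of the pathways were read from 6 lists, and none of their tested members was called (0 of 31, beside 1.89% of all rows tested), with 4 at an unadjusted p under 0.05 (beside 18.1%). For class I folding, 3 of 5 were tested, with a median log2 change of 0.01 beside -0.04 over all rows tested. The chaperone genes Calr and Canx had log2 changes of 0.11 and -0.05 (limma adjusted p = 0.565 and 0.776). Of the proteasome partners, 6 of 7 were tested (median -0.09), led by the activator subunit gene Psme2 at -0.13 and Psmb7 at -0.19 (adjusted p = 0.322 and 0.487). For class II processing, 5 of 7 were tested (median 0.10). Lgmn, a lysosomal protease gene, had 30.9, 32.3 and 31.1 FPKM in WT and 38.9, 34.4 and 36.8 FPKM in FNcKO without overlap (log2 change 0.21, adjusted p = 0.188). Ifi30, a lysosomal thiol reductase gene, had a log2 change of 0.37 (adjusted p = 0.334).

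The MHC regulators gave 7 of 11 tested (median -0.03). Nlrc5, the transactivator of class I genes, had 2.76, 2.24 and 2.46 FPKM in WT and 3.43, 3.77 and 2.98 FPKM in FNcKO. All 3 FNcKO libraries lay above the WT libraries, but Nlrc5 missed the threshold (log2 change 0.33, SE 0.10, limma adjusted p = 0.165). Nfkb1, an NF-κB subunit gene, had a log2 change of -0.26 (adjusted p = 0.321). Ciita, the class II transactivator, lay at 0.0358 to 0.0728 FPKM in WT and 0 to 0.0339 FPKM in FNcKO, under the filter. Of 25 interferon genes 8 were tested (median -0.07). Irf2, an interferon regulatory factor gene, had a log2 change of -0.24 (adjusted p = 0.342), and Cxcl10, an interferon-induced chemokine gene, was listed at 0 in every library. Among class I-like genes elsewhere in the genome, 2 of 9 were tested (median -0.23). The iron regulator Hfe had a log2 change of -0.26 (adjusted p = 0.173), and Fcgrt, the neonatal Fc receptor for antibodies, had -0.19 (adjusted p = 0.456).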

How the data were processed

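Lens RNA of 3 WT and 3 FNcKO samples, grouped by their titles, was read from the FPKM table that the authors deposited. The tools named in the submitters' processing notes are Cuffdiff 2.2.1, TopHat2 2.1.0, cutadapt 1.12 and FastQC, and the builds named are mm10 and GRCm38.p5. Neither the gene annotation nor the handling of strand and of multi-mapping fragments is stated there. Start positions were raised by 1. WT replicate 2 has no value in 3578 rows (8.63%), none of them an MHC gene, and 742 tested rows rest on 5 libraries.

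Log2(FPKM + 1) of rows with a mean of at least 1 FPKM was compared two-sided with limma's trended empirical Bayes test (version 3.58.1, R 4.3.3) and adjusted by Benjamini-Hochberg over all rows (threshold 0.05), which was tested on simulated data. Single values were compared with an exact permutation test over every split of the libraries (Python 3.11.15). Alternatives changed the pseudocount, the filter, the scaling, the trend and the libraries used. A filter of 0.1 FPKM with a pseudocount of 0.1 was added after seeing the data.

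Depth came from the most common ratio between low values of 2 libraries, taken as the ratio of 1 fragment's worth, and from 49 single-exon genes (38 within 1% of the fitted line, which subtracts 202.3 bases from each length). After that scaling, 42.9% to 44.3% of the ratios lay within 1% of a ratio of whole numbers up to 6. Such ratios cover 14.4% to 15.4% of the range, so not every low value was shown to be a whole multiple. The smallest common step was taken as 1 fragment; were it more, every depth and fragment number would rise in proportion. Fragments were read as whole within a tolerance of 0.01, and only where the step implied a whole-number length near the annotated transcripts. Other MHC genes met the tolerance but not the length rule. Their steps implied, for instance, 69446 bases for H2-Bl and 4778 for Tap2, whose longest annotated transcript has 3442. They are not given as whole fragments. Shared 50-base words were counted over GENCODE transcripts, and promoters and biotypes came from RefSeq.

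The genes and lists were chosen with earlier results of these data known. Named were MHC genes averaging 1 FPKM or more or called, at most 4 called genes or the 2 with the smallest p of each list, and the 4 with the smallest p among the other genes of the complex. Other MHC genes are given where they separate the groups or lead a class, after their values were seen. A gene that this rule takes is not reported here.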

Additional observations from a re-analysis of the deposited data

How the results depend on the processing

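H2-T24 passed under all 16 alternatives, with adjusted p from 0.00236 to 0.0419 and, leaving out 1 library at a time, a log2 change from -2.07 to -1.91. Over all genes, 192 calls became 101 with no filter on low values, 89 with libraries at the same FPKM total, 86 at that total without crystallins, and 37 (without WT replicate 1) to 117 (without FNcKO replicate 1) with 1 library left out. With the replicate number as a block 14 were called, H2-T24 among them. The numbers share no source in the labels, and same-numbered libraries did not deviate together (r from -0.0545 to -0.027 across genes), so they do not pair the libraries. The count of MHC genes called rose from 1 to 2 under both same-total scalings, by H2-K2. The count of other genes of the complex called, 0 as deposited, was 1 with a pseudocount of 0.1 (Ddr1), 1 with a filter of 0.1 FPKM (A930015D03Rik) and 1 under each same-total scaling (LOC105243785).

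The difference of summed FPKM, FNcKO minus WT, went from -3.92 to -3.34 and -2.94 for the T region and from 0.313 to 0.598 and 0.80 for the Q region under the same total and that total without crystallins, and from -0.144 to 0.466 and 0.884 for the classical genes. The class II difference turned from -0.171 to 0.0449 and 0.20 under these scalings and lay between -0.409 and 0.0787 with 1 library left out, above 0 without FNcKO replicate 2. The classical difference then lay between -0.644 and 0.253. Uncalled log2 changes turned sign under the same total and that total without crystallins in Tapbp (0.15, 0.30), Canx (0.19, 0.37), Psme2 (0.0948, 0.25) and Psmb7 (0.0503, 0.22), and without crystallins in Irf2 (0.12), Hfe (0.0947), Fcgrt (0.0775) and Brd2 (0.10). Canx turned to 0.0499 under quantile normalization. With 1 library left out, H2-K1 ranged from -0.0822 to 0.11, B2m from -0.10 to 0.29 and Canx from -0.11 to 0.00305. The cause was not tested. H2-Aa, H2-Ab1 and H2-Eb1 rested on 0 to 18 fragments per library, which limits their precision.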
